A study of Mus musculus with 19 samples.

Results

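The 4 genes described here are Pou5f1, Sox2, Klf4 and Myc, the factors that were delivered to mouse embryonic fibroblasts to make induced pluripotent stem cells (iPSC). They were taken by symbol from the count table of each library, and all 4 of them were found among the 23420 genes listed. The 19 libraries comprised 14 of iPSC, 3 of embryonic stem cells (ESC) and 2 of epiblast stem cells (EpiSC), each from a separate line or clone except that 2 clones were sequenced in both media. Conditions follow the sample titles, because the source names and characteristics of the same samples name other conditions.

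The 3 ESC were male lines of NOD/ShiLtJ, WSB/EiJ and 129S1/SvImJ at passage 6, grown with serum, leukemia inhibitory factor (LIF) and inhibitors of GSK3B and MEK. The 2 EpiSC were a male NOD/ShiLtJ line at passage 38 and a male line of 129/Sv background at passage 16, both kept under EpiSC conditions. The ESC were supplied by The Jackson Laboratory and each EpiSC line by a different outside provider, while the iPSC were made in the study. Cell state therefore cannot be told apart from laboratory of origin, and the ESC were also at lower passages than the iPSC. The iPSC of NOD/ShiLtJ (male clones 3 and 35, female clones 7 and 52) and of WSB/EiJ (male clones 12 and 25, female clones 23 and 28) were derived and kept in 2iS, which is ESC medium with serum, LIF and both inhibitors, and were at passages 16 to 26. The iPSC of 129S1/SvImJ were derived in ESC/LIF without the inhibitors (male clones 1 and 17, female clones 5 and 8, passages 17 to 21). The male clones 1 and 17 were sequenced again at passages 31 and 30 after a move to 2iS. Each fibroblast stock pooled embryos of a litter, and each clone was picked as a colony. All iPSC carried a lentivirus from which 1 constitutive promoter drives the 4 factors on 1 transcript, and the vector was left in place. The ESC and EpiSC never received it. A count on any of the 4 genes can therefore come from the cell's own gene or from the vector in iPSC, and these cannot be told apart here.

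POU5F1 (OCT4) and SOX2 are transcription factors that bind side by side at enhancers of pluripotency genes, among them their own. KLF4 is a zinc-finger factor of the naive, pre-implantation state, which LIF signalling through STAT3 maintains and which is low in primed, post-implantation cells. MYC is a helix-loop-helix factor that pairs with MAX and drives genes of growth and ribosome production. In mouse ESC its transcription is promoted by LIF and by serum, and is lower in media with a MEK inhibitor.

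In GENCODE M21 (GRCm38), Pou5f1 (ENSMUSG00000024406.16) spans chr17:35506018-35510772 on the plus strand, and 317 of its 2248 exonic bases are overlapped by exons of the antisense gene Gm19553. Sox2 (ENSMUSG00000074637.7), a gene of a single exon at chr3:34650405-34652461 on the plus strand, lies within an intron of the long noncoding gene Sox2ot on the same strand. Klf4 (ENSMUSG00000003032.8) is at chr4:55527143-55532466 on the minus strand and Myc (ENSMUSG00000022346.15) at chr15:61985391-61990374 on the plus strand. No exon of another gene overlaps the exons of Sox2, Klf4 or Myc on either strand.

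The promoter windows below run from 250 bases before to 50 after the RefSeq start (build GRCm38.p6). They are shown because RefSeq places starts of the cell's own genes there, while the vector transcript does not start there. The Sox2 window ends at chr3:34650044, before the GENCODE start of Sox2 at chr3:34650405, so the annotations differ in its start. The windows come from the RefSeq promoter table, which matched 3 of the 4 genes. Capitals mark 4 motifs searched on both strands: the octamer ATGCAAA bound by POU factors, the composite POU and SOX motif, the E-box CACGTG bound by MYC and MAX, and the GC box GGGCGG bound by SP and KLF factors. The composite motif ends in the first 4 letters of the octamer, and 2 of the GC boxes in the Klf4 window share a base. A window at another RefSeq start of Pou5f1 held none of the motifs.
Pou5f1, chr17:35505782-35506081, plus strand: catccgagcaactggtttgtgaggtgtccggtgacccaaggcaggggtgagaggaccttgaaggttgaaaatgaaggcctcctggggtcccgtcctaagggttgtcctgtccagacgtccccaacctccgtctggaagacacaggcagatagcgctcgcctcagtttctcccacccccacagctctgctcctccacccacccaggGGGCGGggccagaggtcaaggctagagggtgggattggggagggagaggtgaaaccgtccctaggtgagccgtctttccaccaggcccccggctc
Sox2, chr3:34649745-34650044, plus strand: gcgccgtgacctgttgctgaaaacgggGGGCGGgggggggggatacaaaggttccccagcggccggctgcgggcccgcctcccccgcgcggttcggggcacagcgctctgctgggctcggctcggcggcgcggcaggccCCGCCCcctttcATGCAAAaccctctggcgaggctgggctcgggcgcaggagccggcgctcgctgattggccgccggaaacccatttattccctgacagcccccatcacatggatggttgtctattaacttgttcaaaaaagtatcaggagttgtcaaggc
Klf4, chr4:55532426-55532725, minus strand: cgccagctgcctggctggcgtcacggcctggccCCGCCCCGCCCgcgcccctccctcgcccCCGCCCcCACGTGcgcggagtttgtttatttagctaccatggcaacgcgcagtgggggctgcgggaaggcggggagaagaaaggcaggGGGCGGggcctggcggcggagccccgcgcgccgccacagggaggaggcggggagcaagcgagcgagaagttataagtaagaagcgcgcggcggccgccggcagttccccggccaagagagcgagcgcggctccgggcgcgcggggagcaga

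The Sox2 window held 1 octamer, a motif found in 4.63% of the 32817 promoter windows of the table, and 2 GC boxes. The Klf4 window held 1 E-box (7.15% of windows hold one) and 4 GC boxes, and the Pou5f1 window held 1 GC box (35.6% of windows). The composite motif was in none of the 3 windows and in 0.0609% of all windows. Among the 6 of 10 listed POU5F1 and SOX2 targets with a window it was in that of Nanog. A match of letters is a description of the window and shows no binding.

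Genes received 92996 to 567432 read pairs in each library, or 1.15% to 1.74% of the uniquely aligned read pairs in 17 libraries and 5.59% and 5.62% in the NOD/ShiLtJ male iPSC. The kit was stranded, and the strand setting of the counting is not given in the sources used here. Of the 20 genes with the most counts in the annotation, 16 have exons that overlap an exon of a protein-coding gene on the other strand (Snx22 that of Ppib, Acat3 that of Tcp1), and the 13.2% of genes with such an overlap held 45.9% of the counts. Gapdh and Eno1, abundant glycolysis genes, had 76 and 8 counts in all 19 libraries together, and Map3k12 had 30853. Counting on the strand opposite to each gene would give such values, and the setting itself could not be read from the tables. A count on any gene here, the 4 factors included, may therefore be a read pair from the strand opposite to its mRNA, and what is called a level below is a level of these counts. Reads of Pou5f1 and of Gm19553 cannot be told apart. Levels are TMM-normalized counts on the CPM scale, on which all libraries have the same size, and 3 counts, taken as the smallest detectable number, came to between 3.76 and 33.5 CPM, depending on depth. The NOD/ShiLtJ male iPSC, which stand apart in this share, were left out of the comparisons of cell states and are given separately. Naive markers (Esrrb, Zfp42, Tfcp2l1, Nr0b1, Tbx3, Nanog, Klf2, Dppa3) summed to 833 to 1466 CPM in ESC, 1048 to 1690 in the other 12 iPSC, 2051 to 2868 in NOD/ShiLtJ male iPSC and 36.1 to 37.9 in EpiSC. Primed markers (Fgf5, Otx2, Dnmt3b, Pou3f1, Zic2, Cer1, T, Lefty2) summed to 259 to 627 CPM in ESC and 89.6 to 363 in the 12 iPSC. Their sum was 335 to 545 CPM in EpiSC and 370 to 460 in NOD/ShiLtJ male iPSC. The ranges of ESC, the 12 iPSC and EpiSC thus overlapped. Among them, Fgf5 had 0 counts in the 3 ESC and in the 12 iPSC. In EpiSC Fgf5 had 17 counts in the 129 line and 0 in the NOD/ShiLtJ line. Lefty2 ran the other way, at 153 to 349 CPM in ESC, 13.8 to 259 in the 12 iPSC and 0 to 30.3 in EpiSC. All 14 listed fibroblast markers were found, and their sum was 2064 to 3277 CPM in ESC and 365 to 1016 in the 12 iPSC. It was 191 to 1280 CPM in EpiSC and 2722 to 3804 in NOD/ShiLtJ male iPSC. In these males most of the sum was Fn1, so it is not the make-up seen in ESC. Of 5901 Fn1 counts over the 19 libraries, ESC held 425, the 12 iPSC 902 and EpiSC 93. Of 153 Col1a1 counts, ESC held 137, the 12 iPSC 7 and EpiSC 6. In bulk RNA, fewer cells of a type and less RNA per cell cannot be told apart.

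Pou5f1 was more abundant in iPSC than in both reference states, by about the same factor. Its counts were 27, 35 and 49 in the NOD/ShiLtJ, WSB/EiJ and 129S1/SvImJ ESC, or 243, 314 and 325 CPM. They were 76 in the NOD/ShiLtJ EpiSC (392 CPM) and 25 in the 129 EpiSC (189 CPM). The 12 iPSC had 58 to 138 counts with a median of 76.5, or 402 to 747 CPM with a median of 618. Each of these 12 iPSC libraries was thus above every ESC and EpiSC library. The nearest were NOD/ShiLtJ female clone 7 at 402 CPM and the NOD/ShiLtJ EpiSC at 392. Both values rest on 76 counts, so their order is within counting error. The share of all genes that separate the states in this way was not computed. The log2 fold change of iPSC over ESC was 1.03 ± 0.24 (SE), with an adjusted p of 0.00853 by edgeR's quasi-likelihood test with Benjamini-Hochberg adjustment over 3986 genes. Without the NOD/ShiLtJ ESC, the lowest of the 3, it was 0.90 and no longer passed (edgeR adjusted p = 0.107). Over EpiSC it was 1.03 ± 0.28 (edgeR adjusted p = 0.00821), without the NOD/ShiLtJ EpiSC it was 1.68, and without the 129 EpiSC it was 0.61 (edgeR adjusted p = 0.217). ESC and EpiSC did not differ in Pou5f1 beyond their spread (log2 fold change -0.01, 95% confidence interval -0.66 to 0.64, edgeR adjusted p = 0.991).

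Sox2 separated EpiSC from the naive cells and did not separate iPSC from ESC. Its counts were 37, 41 and 65 in the NOD/ShiLtJ, WSB/EiJ and 129S1/SvImJ ESC, or 333, 367 and 431 CPM. They were 11 in the NOD/ShiLtJ EpiSC (56.8 CPM) and 16 in the 129 EpiSC (121 CPM). The 12 iPSC ranged from 210 to 403 CPM with a median of 338, from 31 to 76 counts. They overlapped the ESC and lay above both EpiSC. The log2 fold change of iPSC over ESC was -0.24 (95% confidence interval -0.70 to 0.22, edgeR adjusted p = 0.601). Scaled to uniquely aligned read pairs, its sign turned, to 0.05, while the median of all genes moved from 0.05 to 0.34. Over EpiSC, Sox2 was higher by 1.88 ± 0.32 (SE, log2) in iPSC (edgeR adjusted p = 0.00019) and by 2.12 ± 0.36 in ESC (edgeR adjusted p = 0.000536). With only the 129 EpiSC or only the NOD/ShiLtJ EpiSC kept these were 1.41 and 2.47 in iPSC and 1.64 and 2.70 in ESC, and all passed.

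Of the 4, Klf4 was the gene that differed most between naive cells and EpiSC. It had 0 counts in both EpiSC, which allows up to 9.21 CPM over the pair of libraries at 3 counts. The NOD/ShiLtJ, WSB/EiJ and 129S1/SvImJ ESC had 12, 10 and 27 counts (108, 89.6 and 179 CPM), and the 12 iPSC had 11 to 71 counts, or 123 to 484 CPM with a median of 219. Against 3 counts over both EpiSC, summed counts were at least 28.3-fold higher in iPSC and at least 14.3-fold higher in ESC. Both differences passed the test (edgeR adjusted p = 4.08e-06 and 0.000346). Between iPSC and ESC the fold change was 1.01 ± 0.36 (log2, SE) and missed the threshold (edgeR adjusted p = 0.107), with 129S1/SvImJ clones 17 and 1 in ESC/LIF and NOD/ShiLtJ female clone 52 below the highest ESC. It passed with aligned read pairs as the library size (1.30, edgeR adjusted p = 0.0474).

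Myc was nearly undetected in ESC and present in every iPSC. Its counts were 0, 1 and 2 in the NOD/ShiLtJ, WSB/EiJ and 129S1/SvImJ ESC, or 0, 8.96 and 13.3 CPM, each below the level of 3 counts in its library. The EpiSC had 1 count in NOD/ShiLtJ (5.16 CPM) and 6 in 129 (45.4 CPM). The 12 iPSC had 12 to 59 counts with a median of 25.5, or 98.6 to 299 CPM with a median of 200.4. None of these 12 iPSC overlapped any ESC or EpiSC, and the share of all genes that separate the states in this way was not computed. Summed over libraries, the level was 24.7-fold that of ESC (exact 95% interval 8.40 to 121, counting error only) and 9.26-fold that of EpiSC (4.45 to 23.2). Both differences passed the test (edgeR adjusted p = 0.000109 and 0.000888). The log2 fold change over EpiSC was 3.09, and it was 2.11 without the NOD/ShiLtJ EpiSC and 5.04 without the 129 EpiSC, passing in each. ESC and EpiSC were not distinguishable in Myc at this depth (edgeR adjusted p = 0.389), and the sign of their difference turned when the 129 EpiSC was left out (log2 fold change 0.54).

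**Figure D1:**
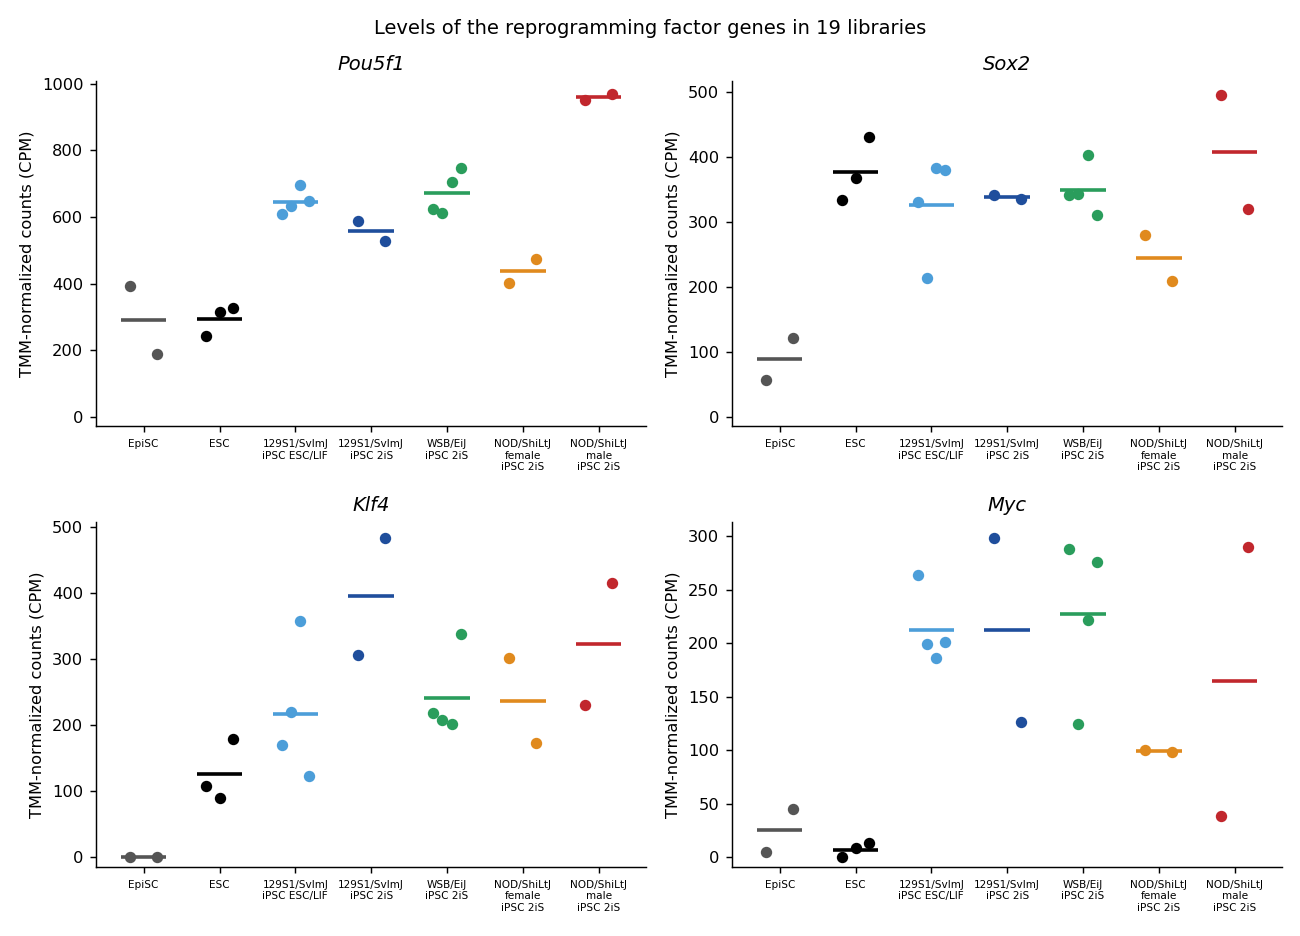
TMM-normalized counts (CPM, linear axes) of the 4 genes, 1 panel a gene, with 1 point a library and a bar at the mean of each of 7 groups. Pou5f1 and Myc of the 12 iPSC outside the NOD/ShiLtJ males lie above all ESC and EpiSC, Sox2 overlaps between iPSC and ESC, and Klf4 is at 0 in both EpiSC. The share of all genes separated in this way was not computed.

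In all, 2 of the 4 genes passed in iPSC versus ESC, where 6.22% of the genes tested did (1% in the higher direction), 4 of 4 in iPSC versus EpiSC, where 28.3% did (11.2% higher), and 2 of 4 in ESC versus EpiSC, where 15.1% did (6.85% higher). Any pair of these 3 comparisons shares the libraries of 1 state. The fibroblast markers were higher in ESC than in the 12 iPSC, with 5 of 7 tested passing (Col1a1 at 288 to 425 CPM against 0 to 31.1), and their part in the differences from ESC was not tested. The iPSC were depleted of feeder cells before RNA extraction, and no such step is stated for the ESC.

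Ratios between genes of the same library do not depend on the library size. They were computed for all 6 pairs after the counts had been seen, as log2 of counts plus 0.5, and compared between the 10 separate clones (WSB/EiJ, NOD/ShiLtJ female, and 129S1/SvImJ in ESC/LIF) and the 3 ESC. Pou5f1 had 0.73 to 0.854 counts for each count of Sox2 in ESC, but 1.43 to 2.97 in the 12 iPSC and 1.92 and 3.03 in the NOD/ShiLtJ males. In every iPSC Pou5f1 exceeded Sox2, and in every ESC Sox2 exceeded Pou5f1. The log2 ratio was 0.95 ± 0.30 (SD, n = 10) in the clones and -0.36 ± 0.12 (SD, n = 3) in ESC, a difference of 1.31 (two-sided exact permutation test, p = 0.00699, adjusted p = 0.0105 over the 6 pairs). This p is the smallest the design allows. In EpiSC the same ratio was 6.91 in NOD/ShiLtJ and 1.56 in 129, on the side of the iPSC. Myc rose against each of the other genes, with log2 differences of 3.18 to Pou5f1, 4.49 to Sox2 and 3.38 to Klf4 (exact permutation test, adjusted p = 0.0105 for each, and the sizes depend on the 0.5 added to ESC counts near 0). Sox2 fell against Klf4 by 1.11 (exact permutation test, adjusted p = 0.0252), and this call was lost when any 1 of the 3 ESC was left out. Pou5f1 and Klf4 kept a ratio that did not differ beyond the spread (log2 difference 0.20, exact permutation test, adjusted p = 0.573).

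**Figure D2:**
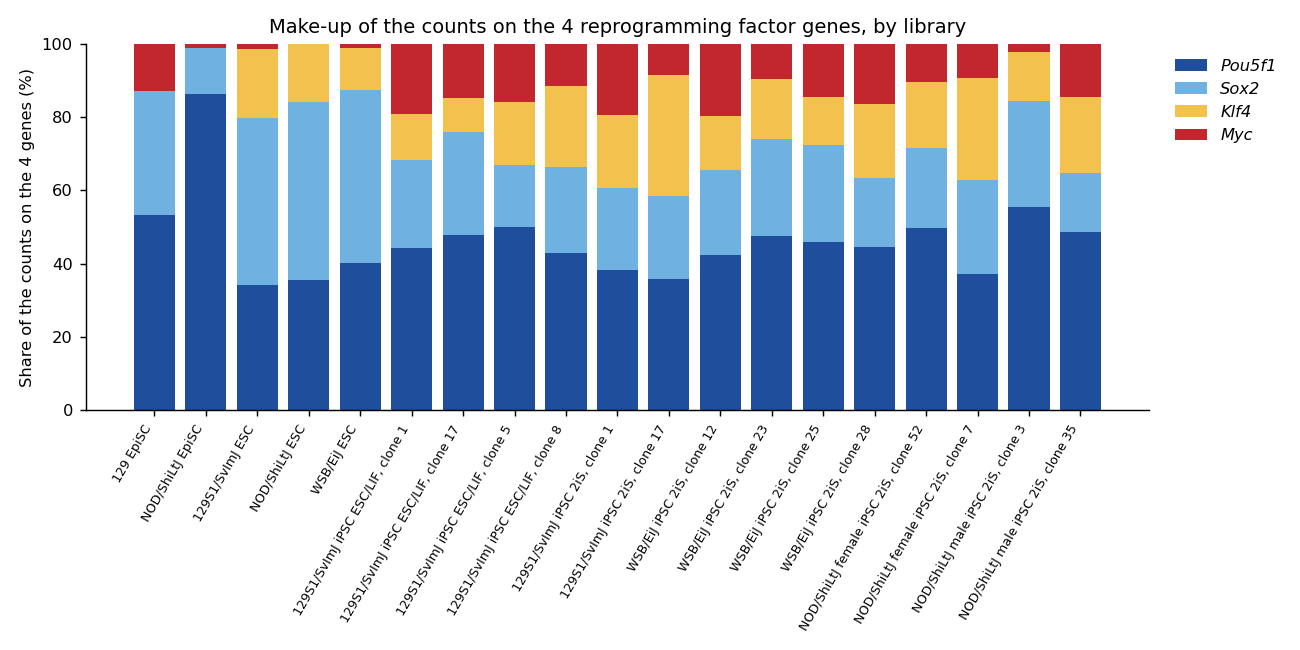
Share (%) of the counts on the 4 genes together that each gene held, as a stacked bar for each of the 19 libraries. Sox2 held 45.5% to 48.7% in the 3 ESC and 16.9% to 28.1% in the 12 iPSC, and Myc held at most 1.40% in ESC and 8.59% to 19.6% in the 12 iPSC.

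Counts per kilobase of exon were also compared between the genes. With the strand of the counts unsettled, and with Gm19553 opposite to Pou5f1, their order may not be that of the mRNAs. Sox2 was the highest of the 4 in ESC, at 183 ± 24.1 CPM per kb (SD, n = 3), ahead of Pou5f1 at 131 ± 19.7 and Klf4 at 41.2 ± 15.5. In the 12 iPSC the order was Pou5f1 at 269 ± 43.6 (SD, n = 12), Sox2 at 157 ± 29.8, Klf4 at 84.8 ± 33.3 and Myc at 73.1 ± 27.0. The levels of Klf4 and Myc did not differ beyond their spread in iPSC. In EpiSC Pou5f1 was at 84.2 and 174 CPM per kb and Sox2 at 58.9 and 27.6 in the 129 and NOD/ShiLtJ lines, so Pou5f1 was higher in each. The exon length is that of the annotated gene, and the vector transcript is shorter for each factor because it lacks their untranslated ends.

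The spread between clones was larger in Klf4 and Myc than in Pou5f1 and Sox2, a comparison made without a test. Over the 10 separate clones the coefficient of variation of the level was 17.01% for Pou5f1 and 21.03% for Sox2, where counting error alone would give 11.05% and 15.3%. It was 33.2% for Klf4 and 35.6% for Myc, where counting error would give 17.6% and 19.3%. The highest clone was 2.91 times the lowest in Klf4 and 2.915 times in Myc, against 1.86 times in Pou5f1 and 1.92 times in Sox2.

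Over the 10 separate clones 1 of 6 pairs of genes was correlated, Pou5f1 with Myc (log2 CPM, Pearson r = 0.78, permutation p = 0.00767, adjusted p = 0.046; Spearman rho = 0.60, permutation p = 0.0735, adjusted p = 0.344). Without the 2 clones farthest from the median of Pou5f1, which were the NOD/ShiLtJ females 7 and 52, r was 0.29, so the relation rests on those clones. Pou5f1 and Sox2 had r = 0.51 and rho = 0.54 (permutation test, adjusted p = 0.340 and 0.344, r without 2 clones 0.20). With aligned read pairs as the library size, rho of this pair was 0.92 (permutation test, adjusted p = 0.00342). The other 4 pairs had r from -0.01 to 0.44 (adjusted p from 0.403 to 0.992, permutation tests) and rho from -0.18 to 0.42 (adjusted p from 0.461 to 0.947). Pou5f1 and Myc ran in the same direction in the 4 WSB/EiJ clones and in opposite directions in the 4 of 129S1/SvImJ in ESC/LIF, and groups of 4 are too few for a test within strains.

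The same 3 ESC served as reference for each of the 5 iPSC groups, in 1 fit of 19 libraries and 4641 genes. Myc passed in 129S1/SvImJ iPSC in ESC/LIF, with a log2 fold change of 4.64 ± 0.84 (SE) over 4 clones and 7.89% of all genes called. It passed in 129S1/SvImJ iPSC in 2iS (4.62 ± 0.93, 2 clones, 3.99% called), in WSB/EiJ iPSC (4.75 ± 0.84, 4 clones, 7.11% called) and in NOD/ShiLtJ male iPSC (4.24 ± 0.89, 2 clones, 46.8% called). The largest of these 4 edgeR adjusted p-values was 0.00515. In the NOD/ShiLtJ males the value was 2.18 without clone 35 and 5.06 without clone 3, passing in each, and in 129S1/SvImJ in 2iS it was 3.88 without clone 1 and no longer passed (edgeR adjusted p = 0.122). Without the 129S1/SvImJ ESC, which had the most Myc counts of the ESC, the 4 values were 4.92 to 5.49. In NOD/ShiLtJ female iPSC, the lowest and closest pair at 98.6 and 101 CPM (2.84% of all genes called), it was 3.53 ± 1.01 and missed the threshold (edgeR adjusted p = 0.055). Pou5f1 passed in 129S1/SvImJ iPSC in ESC/LIF (1.13 ± 0.24), WSB/EiJ iPSC (1.18 ± 0.24) and NOD/ShiLtJ male iPSC (1.70 ± 0.26), missed in 129S1/SvImJ iPSC in 2iS (0.92 ± 0.28, edgeR adjusted p = 0.0564) and missed in NOD/ShiLtJ females (0.56 ± 0.27, edgeR adjusted p = 0.33). Klf4 passed in 129S1/SvImJ iPSC in 2iS (1.63 ± 0.42, edgeR adjusted p = 0.0291) and in NOD/ShiLtJ males (1.32 ± 0.40, edgeR adjusted p = 0.00867). The former call was lost without the NOD/ShiLtJ ESC, without the WSB/EiJ ESC and without either of the 2 clones, and the latter without the NOD/ShiLtJ ESC, the WSB/EiJ ESC or clone 35, and with DESeq2 (adjusted p = 0.0797). Sox2 passed in none of the 5 groups, with log2 fold changes from -0.63 to 0.11 (smallest edgeR adjusted p = 0.347, 0 at an unadjusted p under 0.05 and 0 with DESeq2), and with aligned read pairs it passed in the NOD/ShiLtJ males.

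**Figure D3:**
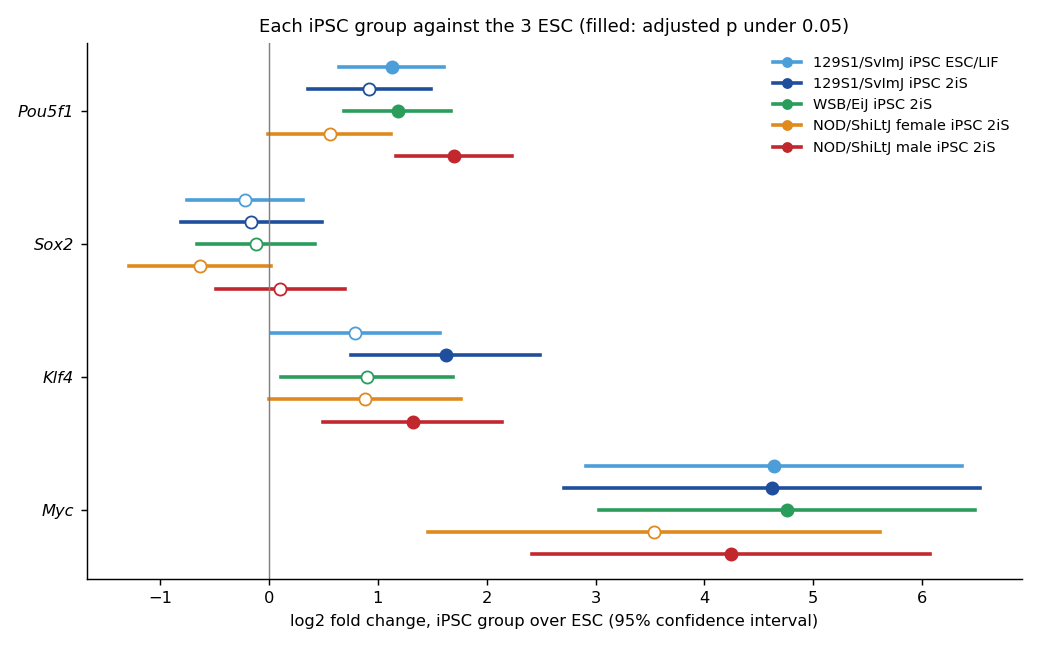
Log2 fold change of each of 5 iPSC groups over the same 3 ESC for the 4 genes, with 95% confidence intervals from edgeR and filled points where the adjusted p is under 0.05. All intervals of Myc lie above 0 and all those of Sox2 include 0.

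With all clones in 2iS, no difference between strains in the 4 genes passed the test. Strain cannot be told apart here from sex, passage or medium of derivation. The 129S1/SvImJ clones were male, derived in ESC/LIF and at passages 30 and 31. The NOD/ShiLtJ clones were female at passages 17 and 18, and the WSB/EiJ clones were of both sexes at passages 16 to 20. WSB/EiJ iPSC had mean levels of 672 CPM for Pou5f1, 349 for Sox2, 241 for Klf4 and 227 for Myc, and 129S1/SvImJ iPSC in 2iS had 559, 338, 395 and 213. NOD/ShiLtJ female iPSC had 438, 245, 237 and 99.6, the lowest mean of these 3 groups for each of the genes. Pou5f1 did not overlap between the groups, at 612 to 747 CPM in WSB/EiJ, 528 to 589 in 129S1/SvImJ and 402 to 475 in NOD/ShiLtJ females. The NOD/ShiLtJ females were also below every library of the other strains in 2iS in Sox2 (210 and 280 CPM, the next at 311) and in Myc (98.6 and 101 CPM, the next at 125), while Klf4 overlapped. The share of all genes whose ranges separate such small groups in this way was not computed. These gaps alone therefore show no difference between strains. In edgeR's test 0 of 4 genes passed for WSB/EiJ versus 129S1/SvImJ (1.14% of all genes called), for NOD/ShiLtJ females versus 129S1/SvImJ (0.28% called) and for WSB/EiJ versus NOD/ShiLtJ females (1.06% called), and DESeq2 also called 0 in each. At an unadjusted p under 0.05 the last of these had Pou5f1 (log2 fold change 0.62, 95% confidence interval 0.10 to 1.15, edgeR adjusted p = 0.334) and Myc (1.22, 0.03 to 2.41, edgeR adjusted p = 0.442), and the other comparisons had 0.

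The 2 clones sequenced in both media were compared for an effect of the inhibitors. In the fit of all libraries, with the 4 clones in ESC/LIF against the 2 in 2iS, 0 of 4 genes passed with edgeR and with DESeq2 (0.733% of all genes called by edgeR), and Klf4 was the 1 gene at an unadjusted p under 0.05 (log2 fold change 0.83 ± 0.37, edgeR adjusted p = 0.446). Klf4 nonetheless rose in both clones. It went from 38 counts at passage 21 in ESC/LIF to 36 at passage 31 in 2iS in clone 1, or from 170 to 307 CPM, a 1.81-fold rise (exact 95% interval 1.11 to 2.93, counting error only). In clone 17 it went from 11 counts at passage 20 to 65 at passage 30, or from 123 to 484 CPM, a 3.94-fold rise (2.06 to 8.27). Between these 4 libraries alone, with the clone as a replicate block since the same clones were grown in both media, Klf4 passed with a log2 fold change of 1.30 ± 0.31 (SE, edgeR adjusted p = 0.0392, 1 of the 4 genes, 4.72% of 2160 genes called). Without the block it also passed (1.37 ± 0.30, edgeR adjusted p = 0.000132, 8.89% called). The female clones 5 and 8 in ESC/LIF had 220 and 358 CPM, the latter above clone 1 in 2iS. Myc moved from 264 to 299 CPM in clone 1 and from 201 to 127 in clone 17, in opposite directions and within counting error (0.722 to 1.75-fold and 0.305 to 1.29-fold). Pou5f1 and Sox2 stayed within counting error in both clones. The medium and the later passage cannot be told apart.

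**Figure D4:**
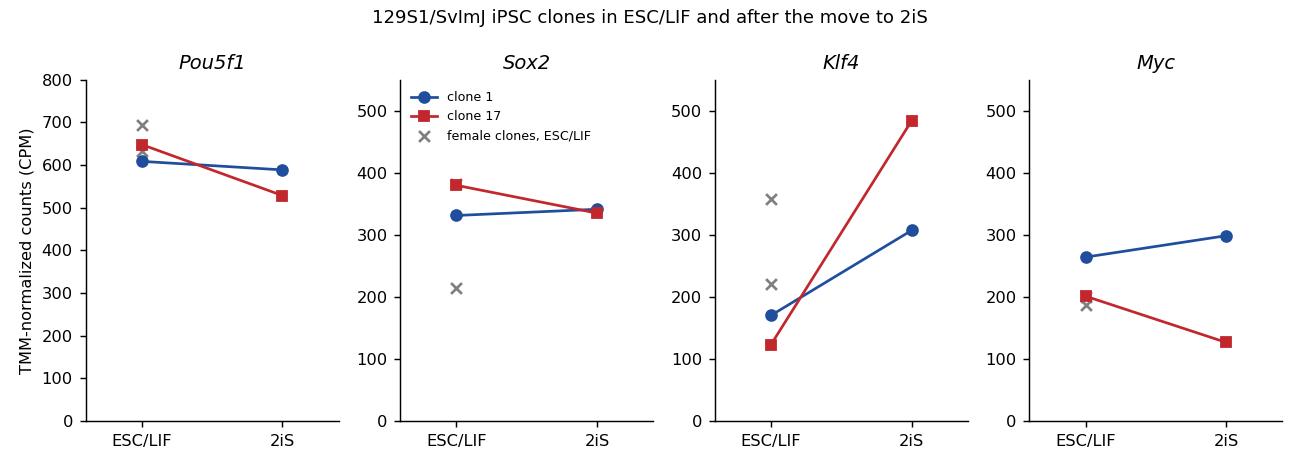
Levels (CPM) of the 4 genes in 129S1/SvImJ iPSC male clones 1 and 17 in ESC/LIF and in 2iS, joined by lines, with the female clones 5 and 8 in ESC/LIF as crosses. Klf4 rises in both clones, from 170 to 307 and from 123 to 484 CPM, and the other genes show no shared direction beyond counting error.

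The 2 NOD/ShiLtJ male clones had Pou5f1 levels of 953 and 969 CPM, from 760 and 605 counts, above all other libraries. Against NOD/ShiLtJ females Pou5f1 was higher by 1.14 ± 0.28 (log2, SE, edgeR adjusted p = 0.00243), the 1 of the 4 genes that passed where 30.5% of all genes did, and the call was lost without female clone 7. Their Myc levels were farther apart than in any other pair of clones of 1 group, with 31 counts (38.9 CPM) in clone 3 and 181 counts (290 CPM) in clone 35. Myc of clone 3 lay below all 12 other-group iPSC and within the range of the EpiSC. Sox2 (495 and 320 CPM) and Klf4 (231 and 415 CPM) also ran in opposite order in these clones. With aligned read pairs as the library size all 4 genes passed against the females, by 2.85 to 3.57 (log2), while the median of all genes moved from 0.15 to 2.56. Measured against that median, the rise was 1.02 for Pou5f1, and 0.59, 0.29 and 0.58 for Sox2, Klf4 and Myc.

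The relatives of the factors were mostly too scarce to test. Of 13 other POU genes 1 was tested, Pou2f1, a widely expressed octamer-binding factor, and it passed in none of the 3 state comparisons (smallest edgeR adjusted p = 0.311, 0 at an unadjusted p under 0.05 and 0 with DESeq2). Of 18 other SOX genes 3 were tested. Sox4 and Sox11, SOXC factors of progenitor cells, were lower in iPSC than in EpiSC (8.89 to 101 CPM against 408 to 576 for Sox4, log2 fold change -3.72, and -3.48 for Sox11), and Sox15, a close relative of Sox2 in embryonic stem cells, was higher (1.98, edgeR adjusted p = 0.0205, not called by DESeq2). Each passed in the same direction in ESC versus EpiSC. Of all genes, 28.3% were called in iPSC versus EpiSC and 15.1% in ESC versus EpiSC. Too few relatives were tested to set their calls against these shares. Exons on the opposite strand overlap 2616 of the 4795 exonic bases of Sox4, so its counts are uncertain, and such overlaps exist also for Pou2f1, Sox15, Mxd3, Lin28a and Tbx3. Of 16 other KLF genes 4 were tested, and Klf2, a naive factor, was higher than in EpiSC both in iPSC (3.07) and in ESC (3.39), as was Klf9 in iPSC (1.80). Of these 8 genes 0 passed between iPSC and ESC with edgeR (6.22% of all genes called), 0 at an unadjusted p under 0.05 and 0 with DESeq2.

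Too few genes of the MYC and MAX network were tested to set their calls between iPSC and ESC against the 6.22% of all genes called. Of 13 genes of this network 12 were found and 6 were tested, and 0 passed in iPSC versus ESC with edgeR (smallest adjusted p = 0.375, 0 at an unadjusted p under 0.05 and 0 with DESeq2), with a median log2 fold change of -0.17 beside 0.05 over all genes. Mycn, named after its values were seen, had 6 to 12 counts in the ESC (54.1 to 108 CPM), above Myc in each of them, and 0 to 89.95 CPM in the 12 iPSC. Against EpiSC, Mga, a MAX partner that represses germ cell genes, was higher and Mxd3, a MAX partner that opposes MYC, was lower, in iPSC (1.50 and -0.91) and in ESC (1.67 and -0.74). Of 19 listed MYC targets 15 were tested. In iPSC versus ESC 0 passed with edgeR and 0 with DESeq2, and the median log2 fold change was 0.30 beside 0.05 over all genes. There 4 were at an unadjusted p under 0.05, Ldha lower in iPSC (-0.70) and Srm (0.82), Nme1 (1.31) and Hspd1 (0.59) higher. In iPSC versus EpiSC the median was 0.78 beside 0.10 over all genes. There 2 of the 15 passed, both higher, a share near the 11.2% of all genes called higher (28.3% called in all). These were Ncl, encoding the ribosome assembly factor nucleolin (1.04, edgeR adjusted p = 0.00265), and Nop58, encoding a core protein of box C/D snoRNPs (1.12, edgeR adjusted p = 0.00804). In ESC versus EpiSC, where 15.1% of all genes were called, 0 passed with edgeR, with a median of 0.23. Ncl was there the 1 gene at an unadjusted p under 0.05 and the 1 called by DESeq2.

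Targets of POU5F1 and SOX2 differed in the comparisons with EpiSC, and 0 of those tested were called between iPSC and ESC. Of 10 listed targets 8 were tested, and 6 were higher in iPSC than in EpiSC, where 11.2% of all genes were called higher (28.3% called in all). The median log2 fold change was 2.51 over the 8. Zfp42, a naive zinc-finger gene, was at 0 counts in both EpiSC and at 239 to 554 CPM in the 12 iPSC. Dppa4, a chromatin-associated factor of pluripotent cells, was also at 0 in both EpiSC and at 37.0 to 89.5 CPM in the iPSC, and Fgf4, a growth factor with a composite POU and SOX enhancer, was at 0 to 7.57 CPM in EpiSC and 60.5 to 151 in the iPSC. The same 6 genes were higher in ESC than in EpiSC, with a median of 2.72, where 6.85% of all genes were called higher (15.1% called in all). In iPSC versus ESC 0 of 8 passed with edgeR and with DESeq2, with a median of 0.17, and Tdgf1 was the 1 gene at an unadjusted p under 0.05. As 6.22% of all genes were called there, 0 of 8 is near that share and sets the targets apart from no other genes. Among 19 other factors used in reprogramming 18 were found and 10 tested. In both comparisons with EpiSC, Esrrb, Nanog, Klf2, Tbx3 and Dppa4 were higher, and Lin28a, an RNA-binding repressor of let-7 processing, was lower in ESC than in EpiSC (-1.56, edgeR adjusted p = 0.0389). Of the 7 naive markers tested 7 were higher than in EpiSC in iPSC and in ESC. Of 2 primed markers tested Dnmt3b was lower (not called by DESeq2) and Lefty2 higher in iPSC than in EpiSC, and of the differentiation markers Nes, a neural progenitor filament gene, was lower (-3.16).

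Over the 17 libraries without NOD/ShiLtJ males, the genes most like each factor were found by Pearson's r of log2 CPM, as a description of libraries that share their states and depths. For Klf4 they were Esrrb (r = 0.95), Tfcp2l1 (0.95) and Fgf4 (0.94), of which the first pair encode naive transcription factors. For Sox2 they were Triml2 (0.91), the X-inactivation RNA Xist (0.90) and the X-linked tumor antigen gene Trap1a (0.89), and each of these was low in EpiSC. Exons of Tsix and other genes on the opposite strand overlap those of Xist, so its reads, which were highest in the male ESC, cannot be told apart from theirs. For Pou5f1 they were Eif3g, encoding a subunit of translation initiation factor eIF3 (0.89), Nufip1 (0.89) and Esf1 (0.89). For Myc they were Zfp622 (0.83), Ydjc (0.83) and Fam136a (0.82), each from 127 to 193 counts in the 17 libraries together, and exons on the opposite strand overlap part of those of Ydjc. Among the factors themselves Pou5f1 was the 4th closest gene to Myc (0.82) and Myc the 13th closest to Pou5f1, of 3985 genes. With aligned read pairs as the library size these ranks were 10 and 82, and of the 3 genes named for Myc 1 stayed among its closest 3 (Ydjc), with Fam136a at rank 5 and Zfp622 at rank 7. Klf4 was the 28th closest to Sox2 (0.80), and Sox2 and Pou5f1 had r = 0.38.

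**Figure D5:**
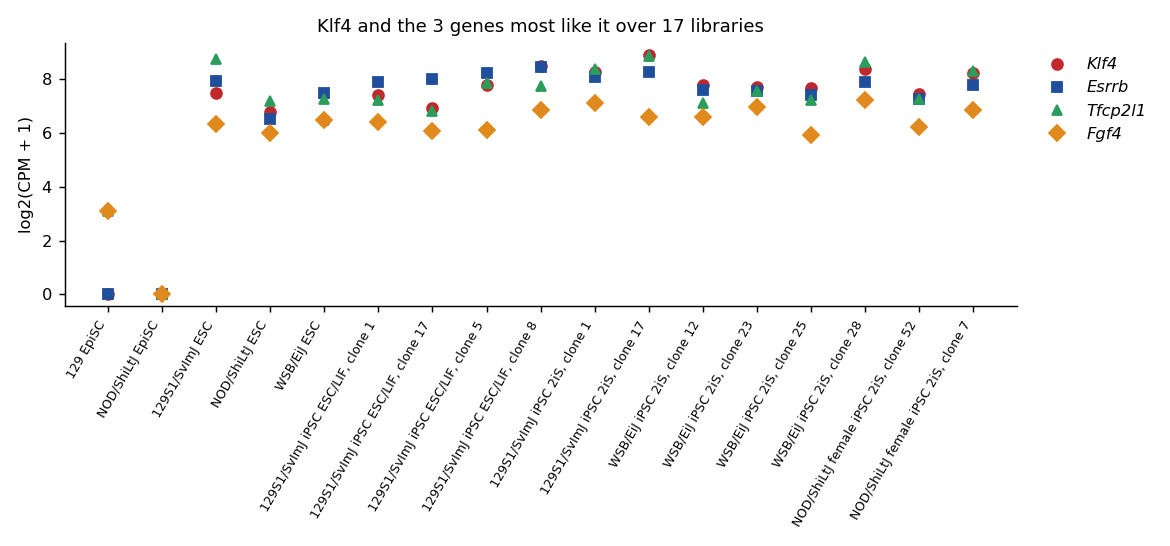
log2(CPM + 1) of Klf4 and of the 3 genes whose levels were most like it, Esrrb, Tfcp2l1 and Fgf4, in each of the 17 libraries without NOD/ShiLtJ males. All 4 genes are at 0 or 1 count in both EpiSC and lie above 5 in every ESC and iPSC.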

How the data were processed

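RNA-seq libraries of 14 iPSC, 3 ESC and 2 EpiSC were analysed. Per the labels and the study's methods, the authors trimmed read pairs with Trimmomatic, aligned them to GRCm38 with TopHat2 2.1.1 and deposited raw counts per gene from HTSeq for 23420 genes, not normalized. The 5 summary rows of each table stayed out of library sizes. Uniquely aligned read pairs are the sum of gene, no-feature and ambiguous pairs. Conditions follow the titles: 4 genes of Chromosome Y contradicted their sex in 0 of 19 libraries and that of the characteristics in 10.

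The 4 genes and the gene lists were chosen with earlier results of these data known. Counts were tested with edgeR 4.0.16 in R 4.3.3 (TMM, filterByExpr, glmQLFit, glmQLFTest, Benjamini-Hochberg adjusted p under 0.05 over all genes tested). Cell states were fitted in 17 libraries without NOD/ShiLtJ males, and groups in 1 fit of 19 libraries in 7 groups. Adjusted p-values of single genes are from these fits unless another is named. Standard errors are the fold change over the square root of its F statistic. Genes named from a list passed the test (at most 3 with the largest change per list and comparison) or had the 2 highest mean levels, and exceptions are stated. Alternatives were DESeq2 1.42.0, its size factors, aligned library sizes, no filter, an adjusted p under 0.1, leaving out each library, the other labels, male or 2iS iPSC only, a strain term, and the clone as a replicate block. Clones 1 and 17 are the same clones in both media, so the block pairs them. The difference between the clones in ESC/LIF correlated with that in 2iS over 3986 genes with r = 0.06. Ratios and correlations used scipy 1.17.1, exact permutation tests or 100000 resamples. A prior count of 2 was used for log2 CPM. The models were tested on simulated counts, with 1 dispersion for all genes, in which some genes differed by 2 on the log2 scale. Of these, edgeR recovered 91% in iPSC versus ESC (167 changed genes of 3396) with 3.18% false calls. In the comparison of media it recovered 62.2% (185 changed genes of 4194) with 3.36% false calls. Smaller changes, such as those of Pou5f1 and Klf4 between iPSC and ESC, were not simulated, so these rates do not apply to them.

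All p-values measure the spread between lines and clones with 1 library each, except that clones 1 and 17 of 129S1/SvImJ enter with a library of each medium, as if separate. Intervals and floors cover counting error only.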

Additional observations from a re-analysis of the deposited data

Results flagged for a closer look

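Klf4 in the 4 WSB/EiJ iPSC clones was flagged because 1 clone lay far from the others. Female clone 28 had 338 CPM (38 counts), and clones 12, 23 and 25 had 218, 208 and 202 CPM (41, 20 and 20 counts). The gap to the nearest clone was 0.877 of the whole range of the group. This was the 1 of 12 sets of 4 libraries examined (the 4 genes in WSB/EiJ iPSC, 129S1/SvImJ iPSC in ESC/LIF and NOD/ShiLtJ iPSC) that passed the limit, which chance passes in about 1 of 20.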

How the results depend on the processing

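Over the 13 comparisons, the alternatives that follow the title labels and keep all libraries gave 303 values for single genes, of which 287 kept direction and side of the threshold, 15 passed anew, 1 was lost (Klf4 in NOD/ShiLtJ males versus ESC, with DESeq2) and 0 turned direction with a call. Leaving out each library in turn gave 356 values, of which 344 kept theirs, 11 were lost and 1 passed anew. The number of the 4 genes called ranged from 1 (without the NOD/ShiLtJ ESC) to 2 in iPSC versus ESC, from 0 (without female clone 7) to 2 (without male clone 3) in NOD/ShiLtJ males versus females, and from 0 (without clone 1) to 2 in 129S1/SvImJ iPSC in 2iS versus ESC, with 1 without clone 17, the NOD/ShiLtJ ESC or the WSB/EiJ ESC.

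For NOD/ShiLtJ males versus females it was 2 at an adjusted p under 0.1 and 4 with aligned read pairs as library size. For NOD/ShiLtJ females versus ESC it was 1, Myc, at an adjusted p under 0.1, with aligned read pairs and with no filter on low counts. For the medium it was 1, Klf4, in the male clones with and without the replicate block, and all genes called were 34 in the main test, 192 in the male clones alone and 102 with the block. All genes called in iPSC versus ESC were 166 to 600 over the alternatives beside 248, in iPSC versus EpiSC 837 to 1874 beside 28.3% of 3986 genes, and in ESC versus EpiSC 329 to 872 beside 601. With Spearman's rho 0 pairs of genes were correlated on the TMM scale and 1, Pou5f1 and Sox2, with aligned read pairs. With iPSC in 2iS only, where each clone enters once, 2 of the 4 genes passed over ESC and 4 over EpiSC.

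Under the other labels, from source names and characteristics, 0 of the 4 genes passed in iPSC versus ESC, iPSC versus EpiSC, ESC versus EpiSC, NOD/ShiLtJ males versus females and each iPSC group versus ESC. Myc then had log2 fold changes of -0.19 in iPSC versus ESC, -0.13 in 129S1/SvImJ iPSC in ESC/LIF versus ESC, -0.81 in 129S1/SvImJ iPSC in 2iS versus ESC and -0.13 in NOD/ShiLtJ males versus ESC. Pou5f1 had -0.0044 in NOD/ShiLtJ males versus females and -0.14 versus ESC, and Klf4 had -0.31 in NOD/ShiLtJ males versus ESC. The cause of these changes was not tested.

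A floor of 3 counts is 13.4 to 33.5 CPM in 17 libraries, so levels of Myc in ESC, and of most relatives of the factors, could not be told from 0. The ratios within libraries, chosen after seeing the data, kept their direction and call with 1 count added, with all 14 iPSC and with the clones in 2iS alone.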
